A study of Mus musculus with 3 samples.

Results

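The aminoacyl-tRNA synthetase genes of mouse neural progenitors were examined in 3 single-cell libraries: a control, bulk electroporation and localized electroporation. The members were taken by symbol from a list of 36 genes, the cytosolic enzymes set against the mitochondrial ones, whose symbols end in 2. Of these, 35 were present among the 32285 genes of the files, 19 cytosolic and 16 mitochondrial, and 1 symbol, Mars1, was absent and dropped. All 35 had a mean over the libraries of at least 2 UMIs per 1000000 UMIs (CPM), as did 11096 genes in all, and these 11096 are the measured genes below. A UMI is a molecular tag that counts each captured transcript once, and CPM here is a gene's summed UMIs per 1000000 UMIs in the kept cells of a library.

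The cells came from brains of mice at postnatal day 1 and were grown as neurospheres with 20 ng/mL of epidermal growth factor. They were plated at 50000 cells on coated dishes or on coated localized electroporation devices and cultured for 16 h. Bulk electroporation used a Lonza 4D Nucleofector, and localized electroporation, in which the field acts on a small area of the membrane, used 20 V and 400 pulses on the device. All 3 groups were sampled at 4 h, and 10000 cells of each went into droplet libraries that read transcripts from the 3′ end. No strain, genotype or cargo is given in the labels, and the surface on which the control cells sat is not stated, so the device and its pulses cannot be told apart.

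With 1 library in each group, replicate error is unknown throughout and no p-value is given. The intervals are exact 95% intervals for counting error only. Control kept 6091 cells, bulk electroporation 5531 and localized electroporation 6298, with 61775756, 77491732 and 76177026 UMIs in total and median depths of 9542, 11644 and 10980.5 UMIs per cell. Between 6 and 9 cell barcodes were shared by any pair of libraries. Neural progenitor markers were present in every library, at summed levels of 7507 CPM in control, 8470 CPM in bulk and 10328 CPM in localized electroporation, with Vim, Sox2 and Nes among them. Summed microglial and erythroid markers were at most 0.275 CPM in any library. Both electroporated groups are compared with the same control library, so the comparisons are not independent of each other.

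Aminoacyl-tRNA synthetases attach each amino acid to its transfer RNA, the step that fixes the genetic code before the ribosome reads it. Mammalian cells keep one set for the cytosol and another, also encoded in the nucleus, for translation inside mitochondria. Several cytosolic enzymes sit in a multisynthetase complex held together by scaffold proteins, and the others act free of it. When uncharged transfer RNA or other stress slows initiation, the transcription factor ATF4 is made, and it is known to raise genes for amino acid synthesis, amino acid transport and many cytosolic synthetases.

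Localized electroporation held fewer cytosolic synthetase transcripts than control, and bulk electroporation stood close to control. Of the 19 cytosolic genes, 8 were at least 1.5-fold lower in localized electroporation than in control (42.1%), against 3.32% of all measured genes. None was at least 1.5-fold higher, where 12.8% of all measured genes were. The members below control numbered 16 of 19, against 32.5% of all measured genes, and the median log2 ratio was -0.46 against 0.15 over all of them. In bulk electroporation 0 of 19 were at least 1.5-fold lower, against 2.12% of measured genes, and 0 of 19 were at least 1.5-fold higher, against 8.17%. There 13 of 19 lay below control, against 34.1% of measured genes, and the median log2 ratio was -0.08 against 0.11. Summed over the set, the cytosolic genes stood at 1926 CPM (1915 to 1937) in control against 1809 CPM (1799 to 1818) in bulk, with localized electroporation at 1327 CPM (1319 to 1335). The 3 intervals do not overlap, and the larger step lies between bulk and localized electroporation.

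**Figure D1:**
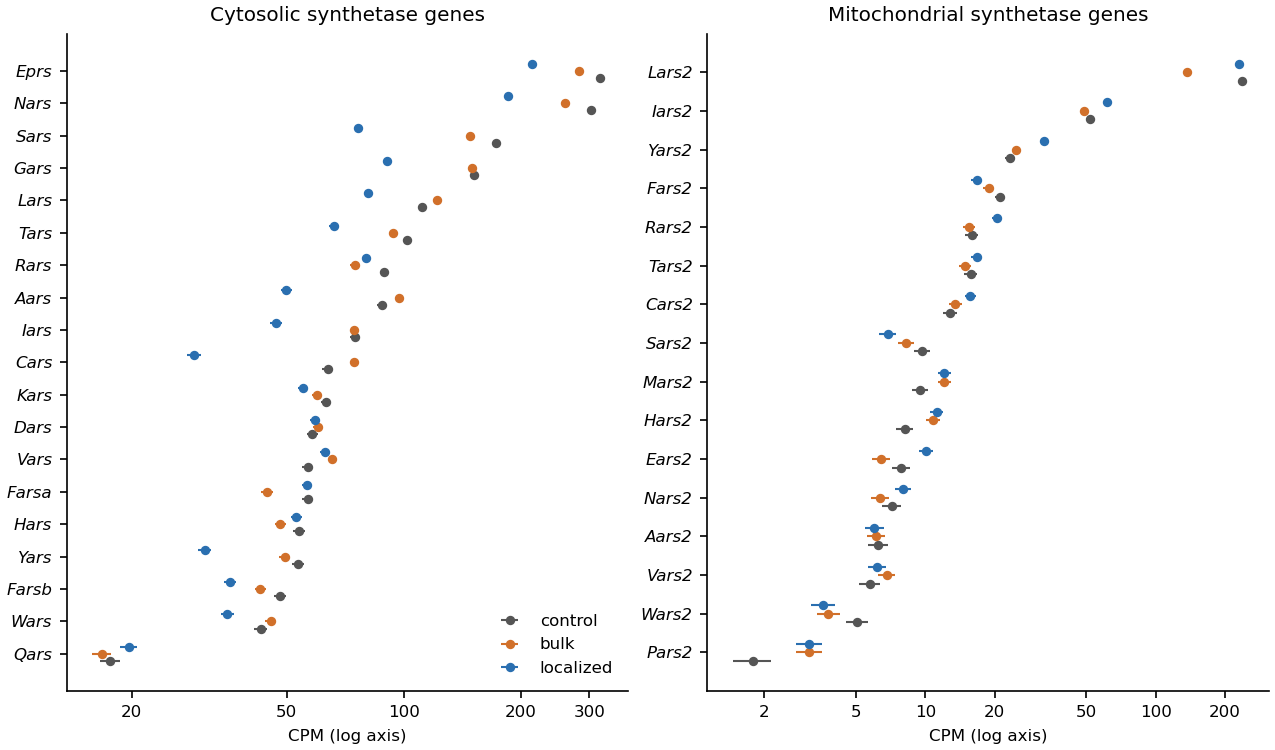
Level of each synthetase gene in CPM on a log axis in control (grey), bulk (orange) and localized electroporation (blue), each point being 1 library with its exact 95% counting interval. The localized point lies below control for 16 of the 19 cytosolic genes, against 32.5% of all measured genes. For the mitochondrial genes it lies above control in 11 of 16, against 67.5% of all measured genes.

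Sars, seryl-tRNA synthetase (chromosome 3, 108424865 to 108445209, minus strand; GRCm38), stood lowest against control. It was at 173 CPM (169 to 176) in control against 148 CPM (145 to 151) in bulk, with localized electroporation at 76.4 CPM (74.5 to 78.4). That is a log2 ratio of -1.17 (-1.22 to -1.13) for localized electroporation and -0.22 (-0.26 to -0.18) for bulk, so the libraries fall in the order control, bulk, localized with no overlap of their intervals.

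Cars, cysteinyl-tRNA synthetase (chromosome 7, 143557230 to 143600090, minus strand), was at 63.8 CPM (61.8 to 65.8) in control against 74.6 CPM (72.7 to 76.5) in bulk, with localized electroporation at 28.9 CPM (27.7 to 30.1). Its log2 ratio to control was -1.14 in localized and 0.23 in bulk electroporation, opposite sides of control. Cars and Sars were the 2 cytosolic members at least 2-fold lower in localized electroporation, where 1.23% of measured genes were.

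Aars, alanyl-tRNA synthetase (chromosome 8, 111033144 to 111057664, plus strand), had the same order as Cars, with bulk highest and localized lowest. It stood at 87.9 CPM (85.5 to 90.2) in control against 97.2 CPM (95 to 99.4) in bulk, with localized electroporation at 49.9 CPM (48.3 to 51.5), a log2 ratio of -0.82 for localized electroporation. A long annotated Aars transcript shares 1326 bases at its 3′ end with Exosc6 on the same strand, so reads there could be split between these genes.

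Yars, tyrosyl-tRNA synthetase (chromosome 4, 129189760 to 129219607, plus strand), was at 53.4 CPM in control, 49.5 CPM in bulk and 30.8 CPM in localized electroporation, a log2 ratio of -0.80 for the latter. Gars, which charges glycine in both the cytosol and mitochondria from a single gene (chromosome 6, 55038007 to 55079500, plus strand), was at 151 CPM in control, 150 CPM in bulk and 90.4 CPM in localized electroporation. For Gars the control and bulk intervals overlap (148 to 154 and 147 to 153 CPM), and the localized library alone stands apart at a log2 ratio of -0.74.

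Nars, asparaginyl-tRNA synthetase, was at 302 CPM in control, 260 CPM in bulk and 185 CPM in localized electroporation, log2 ratios to control of -0.22 and -0.71. Iars, isoleucyl-tRNA synthetase (chromosome 13, 49682100 to 49734267, plus strand), was at 75 CPM in control, 74.6 CPM in bulk and 47.0 CPM in localized electroporation, a log2 ratio of -0.68 for the latter. Iars again shows control and bulk together and localized electroporation below them. The pseudogene Gm4849 matches an Iars transcript at 94.7% over 2251 bases, so the Iars count is uncertain to that extent.

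Tars, threonyl-tRNA synthetase (chromosome 15, 11382301 to 11399665, minus strand), lay just past the 1.5-fold limit, a log2 ratio of 0.58 in size. It was at 102 CPM in control, 93.6 CPM in bulk and 66.2 CPM in localized electroporation, a log2 ratio of -0.62 (-0.68 to -0.57) for the latter. Eprs, the fused enzyme for glutamate and proline, fell just short of that limit, with a log2 ratio of -0.58 (-0.61 to -0.55). It was at 320 CPM in control, 281 CPM in bulk and 214 CPM in localized electroporation. The counting intervals of Tars and Eprs both cross the limit, so the count of 8 depends on where the limit is set.

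The promoter letters of the lower members are shown because ATF4 binds with C/EBP partners to an element whose core reads TGATGNAA. RefSeq promoter windows (GRCm38.p6, 250 bases before to 50 bases after a start, 300 in all) were searched for TGATGNAA on both strands, and capitals mark the match. The motif lies in 3.97% of all 32851 windows, and in 4.51% of 27025 genes. Of the 8 lower members 6 had a window, and 5 of the 6 held a match: Aars, Yars, Gars, Iars and Tars. All printed runs are 5′ to 3′ on the strand of the gene.
Aars, chr8:111033840-111033869, plus strand, match from base 10: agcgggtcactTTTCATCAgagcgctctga
Yars, chr4:129189895-129189924, plus strand, match from base 4: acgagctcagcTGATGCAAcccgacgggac
Iars, chr13:49682126-49682155, plus strand, match from base 8: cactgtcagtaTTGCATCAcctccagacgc
Tars, chr15:11399655-11399684, minus strand, match from base -15: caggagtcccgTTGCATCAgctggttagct
Gars, chr6:55037851-55038000, plus strand, match from base -30: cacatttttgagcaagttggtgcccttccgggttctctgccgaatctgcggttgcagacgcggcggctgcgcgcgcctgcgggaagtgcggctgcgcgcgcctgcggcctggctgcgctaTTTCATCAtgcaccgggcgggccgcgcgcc
Sars, chr3:108445260-108445409, minus strand, no match: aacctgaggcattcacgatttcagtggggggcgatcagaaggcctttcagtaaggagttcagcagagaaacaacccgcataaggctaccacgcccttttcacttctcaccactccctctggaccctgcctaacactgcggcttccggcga
Positions are counted from the RefSeq start, with bases before it negative. That start can differ from the gene coordinates given above. The Aars window (111033592 to 111033891) lies wholly inside the stated gene, and the Sars window (108445210 to 108445509) wholly outside it. Annotated exons of Aars and Tars reach into the bases before the RefSeq start. Of the 11 other cytosolic members 6 had a window and 0 of the 6 held a match, and 0 of the 14 mitochondrial members with a window did. Sars, the member lowest against control, holds none in its window, which says only that these letters are not there. A match is a description of the letters and not of binding, which was not measured.

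The remaining 10 cytosolic members spanned log2 ratios from -0.46 to 0.16 between localized electroporation and control. Lars, leucyl-tRNA synthetase, was nearest to the limit among them, at 112 CPM in control, 121 CPM in bulk and 81.0 CPM in localized electroporation. Farsb, Wars, Kars and Rars followed, with log2 ratios of -0.43, -0.28, -0.19 and -0.15. Farsb and its partner Farsa encode the subunits of the same phenylalanyl-tRNA synthetase, yet Farsa stood at 56.6 CPM in control and 56.5 CPM in localized electroporation, and at 44.5 CPM in bulk, its lowest library. Wars, tryptophanyl-tRNA synthetase, is known to be induced by interferon gamma and stood at 42.8 CPM in control, 45.5 CPM in bulk and 35.2 CPM in localized electroporation. Hars and Dars differed from control by less than their counting intervals in localized electroporation, with log2 ratios of -0.02 (-0.09 to 0.04) and 0.03 (-0.04 to 0.09). Vars and Qars stood above control there, at log2 ratios of 0.15 and 0.16. The cytosolic methionyl enzyme is listed in the files as Mars, a symbol outside the rule, also belongs to the multisynthetase complex and stood at 53.7 CPM in control, 52.9 CPM in bulk and 35.6 CPM in localized electroporation.

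**Figure D2:**
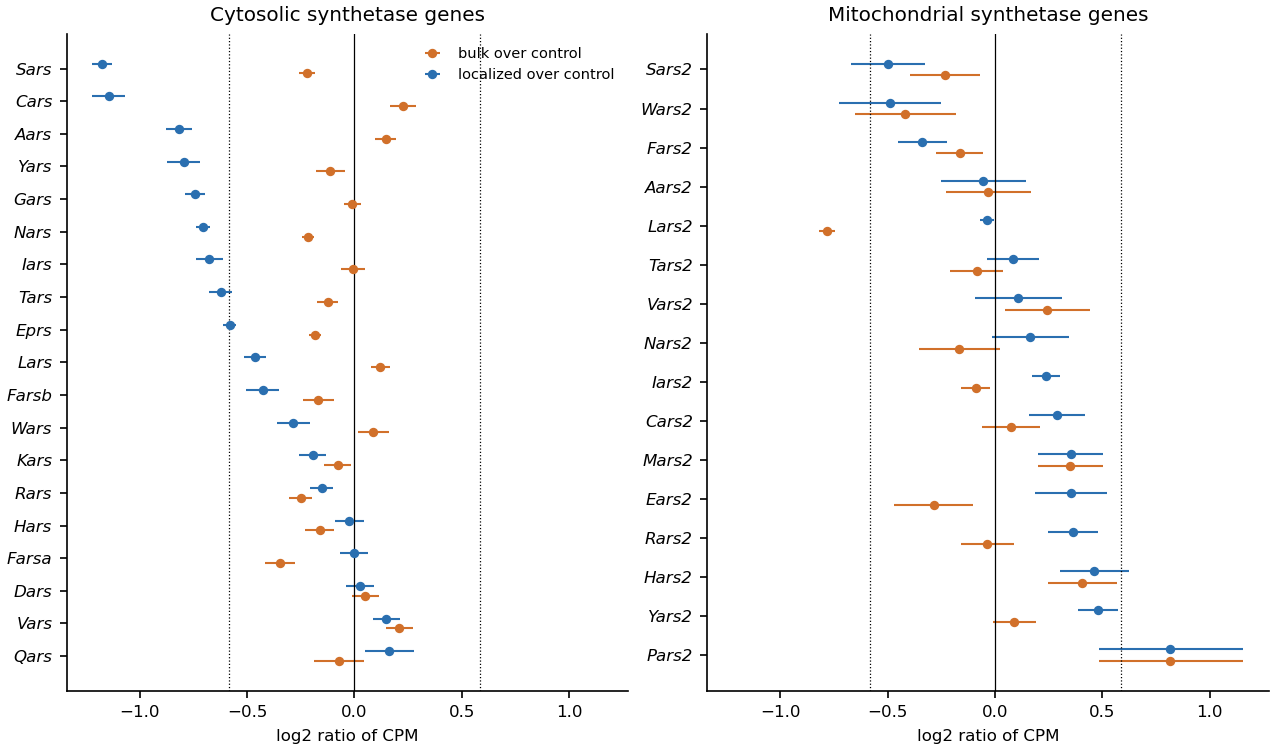
Log2 ratio of CPM to control for each gene in bulk (orange) and localized electroporation (blue), with exact 95% counting intervals; dotted lines mark 1.5-fold and genes are sorted by the localized ratio. The 8 cytosolic genes left of the lower dotted line are all localized points, while among mitochondrial genes only the bulk point of Lars2 lies there.

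Within the cytosolic set, the genes of free enzymes and of complex members differed in their counts. Of the 12 free enzymes, 7 were at least 1.5-fold lower in localized electroporation than in control, against 3.32% of measured genes, with a median log2 ratio of -0.67. Of the 7 complex members, 1 was, Iars, against the same 3.32%, with a median of -0.19. Mars, a complex member outside the rule, was also past the limit, at -0.59, and its promoter window holds no match to the motif. Eprs, 1 of the 7, fell just short at -0.58 (-0.61 to -0.55), so the difference in counts depends on where the limit is set. Summed, the free enzymes stood at 1191, 1120 and 771 CPM in control, bulk and localized electroporation, and the complex members at 735, 689 and 556 CPM. The structural classes of the catalytic domain stood closer together, with 3 of 9 class I and 5 of 10 class II members lower, again against 3.32% of measured genes, and medians of -0.46 and -0.53.

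The genes of the 3 scaffold proteins of the complex were not past 1.5-fold in either comparison with control. Of measured genes, 2.12% were lower and 8.17% higher in bulk, and 3.32% and 12.8% in localized electroporation, so so small a set says little. Aimp1 stood at 189 CPM in control, 175 CPM in bulk and 187 CPM in localized electroporation, and Aimp2 at 43.1, 33.3 and 41.3 CPM. Eef1e1, which encodes the smallest scaffold protein, stood at 102, 85.3 and 128 CPM, and was highest in localized electroporation. Its log2 ratio for bulk over localized electroporation was -0.59 (-0.63 to -0.54), opposite in direction to most cytosolic enzymes. That is past the limit, as 5.37% of measured genes were in this direction, but the counting interval crosses the limit.

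Set directly against each other, bulk and localized electroporation differed in 6 cytosolic members that were at least 1.5-fold higher in bulk, against 4.67% of measured genes. These were Cars, Aars, Sars, Gars, Yars and Iars, with log2 ratios of bulk over localized electroporation of 1.37, 0.96, 0.95, 0.73, 0.68 and 0.67. Lars followed at 0.58, just under the limit. The median over the 19 members was 0.40, against -0.04 over all measured genes. In cells of 6000 to 20000 UMIs only, the count was 3. Control, bulk and localized electroporation stood in that descending order for 9 of 19 cytosolic and 4 of 16 mitochondrial members, against 11.3% of measured genes.

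Mitochondrial synthetase transcripts did not share the lower level of the cytosolic set in localized electroporation. Of the 16 genes, 0 were at least 1.5-fold lower there than in control, against 3.32% of measured genes, and 1 was at least 1.5-fold higher, Pars2, against 12.8%. The members above control numbered 11, against 67.5%, so these counts lie near the shares over all genes. Their median log2 ratio was 0.20, near the 0.15 of all measured genes. In bulk electroporation 1 was lower, Lars2, against 2.12% of measured genes, and 1 was higher, Pars2, against 8.17%, with a median of -0.06. The log2 ratio of Lars2, -0.78, was -0.42 in cells of 6000 to 20000 UMIs and -0.51 without cells above 25000 UMIs, short of the 1.5-fold limit. In bulk against localized electroporation Lars2 and Ears2 were at least 1.5-fold lower, where 5.37% of measured genes were.

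Pars2, the mitochondrial prolyl enzyme (chromosome 4, 106651069 to 106655282, plus strand), was seen in 110 UMIs of control, 243 of bulk and 239 of the localized library. These are 1.78 CPM (1.46 to 2.15), 3.14 CPM (2.75 to 3.56) and 3.14 CPM (2.75 to 3.56), so both electroporated libraries stood above control, each at a log2 ratio of 0.82. Of the 6 clusters compared below, Pars2 was under control only in cluster 1, at log2 ratios of -0.11 in bulk and -0.03 in localized electroporation. Its largest ratios, 2.00 and 1.69 in cluster 0, rest on 11 UMIs in control. Ears2, the mitochondrial glutamyl enzyme (chromosome 7, 122037213 to 122067263, minus strand), was at 7.87 CPM in control, 6.45 CPM in bulk and 10.1 CPM in localized electroporation. Control thus lay between the electroporated libraries, and only their direct contrast, at -0.64, passed the limit.

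The other mitochondrial members of high level stayed within 1.5-fold of control, some above it and some below. Iars2 was at 52.0 CPM in control, 48.9 CPM in bulk and 61.2 CPM in localized electroporation. Yars2, the mitochondrial tyrosyl enzyme, was at 23.4, 24.9 and 32.6 CPM, the higher value again in localized electroporation with a log2 ratio of 0.48 to control. Fars2 went the other way, at 21.1, 18.8 and 16.7 CPM. Rars2 was at 15.9, 15.5 and 20.5 CPM and Tars2 at 15.8, 14.9 and 16.7 CPM. The remaining 8, Aars2, Cars2, Hars2, Mars2, Nars2, Sars2, Vars2 and Wars2, spanned 3.61 to 15.7 CPM and log2 ratios to control from -0.50 to 0.46.

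Lars2, the mitochondrial leucyl enzyme (chromosome 9, 123366927 to 123462666, plus strand), is set apart by where its UMIs were found. In kept cells it stood at 236 CPM (232 to 240) in control against 137 CPM (135 to 140) in bulk, with localized electroporation at 230 CPM (226 to 233), a log2 ratio of -0.78 for bulk. In barcodes of 10 to 100 UMIs, too few for a cell, it reached 7495 CPM in control, 8238 CPM in bulk and 5033 CPM in localized electroporation, or 31.8, 60.1 and 21.9 times its level in cells. The other 15 mitochondrial members stood between 0.292 and 1.48 times their level in cells there. Gm42418 and AY036118, loci known to overlap ribosomal RNA sequence, stood beside Lars2, at 35.9, 39.8 and 18.3 times and at 17.7, 22.8 and 13.6 times. No stretch of at least 90 bases of the protein-coding Lars2 transcripts matched an annotated transcript of another gene at 90% or more. Only annotated transcripts were searched, not the genome, and the source of these UMIs was not tested. Lars2 made up 53.9% of the mitochondrial set's UMIs in control cells, 40.6% in bulk and 49.9% in localized electroporation, so sums over that set are given without it.

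Without Lars2 the summed mitochondrial set stood at 202 CPM (199 to 206) in control against 200.3 CPM (197 to 203) in bulk, with localized electroporation at 231 CPM (227 to 234). The ratio of cytosolic to mitochondrial synthetase UMIs, also without Lars2, needs no scaling of the libraries. It was 9.52 (9.35 to 9.70) in control against 9.03 (8.88 to 9.18) in bulk, with localized electroporation at 5.75 (5.66 to 5.85). Localized electroporation thus lay far below the others in this balance, and bulk a little below control. The place of bulk depends on leaving out Lars2, a choice made after seeing the data, and with Lars2 counted bulk stood above control. By cluster, bulk stood above control in cluster 1, at 7.44 (7.16 to 7.74) against 7.28 (6.97 to 7.61). The same held in cluster 3, at 10.4 (9.71 to 11.2) against 9.60 (8.99 to 10.3). Bulk stood below control in clusters 0, 2, 4 and 5. The control and bulk intervals overlap in clusters 1, 3, 4 and 5, and not in clusters 0 and 2.

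Enzymes for the same amino acid in the 2 compartments formed 16 pairs, with Eprs set against both Ears2 and Pars2, and Fars2 against both Farsa and Farsb. In localized electroporation the cytosolic gene had the lower log2 ratio to control in 13 of 16 pairs, with a median difference of -0.69. Cars against Cars2 was the widest, at -1.43, followed by Eprs against Pars2 at -1.40 and Yars against Yars2 at -1.28. The 3 pairs that went the other way were Farsa with Fars2, Wars with Wars2 and Vars with Vars2. In bulk electroporation 9 of 16 pairs had the lower ratio on the cytosolic side, with a median difference of -0.02.

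The lower cytosolic level in localized electroporation was present in each of the 6 clusters of cells that held at least 200 cells in every library. Cluster 2 was dividing-like (Ube2c, Cenpf and Ccnb1 among its leading genes, with the interferon-induced Cxcl10 and Isg15 there too), and cluster 3 was oligodendrocyte precursor-like (Sox10, Gpr17, Pdgfra and Lhfpl3). Clusters 0, 1, 4 and 5 had too few fixed markers for a name, with Fbxo32 and Neat1 leading cluster 0, Ccne2 and Hist1h1b cluster 1, Cdc20 and Cenpa cluster 4, and Pdgfra and Brinp3 cluster 5. Cluster 2 had 10 of 19 cytosolic members at least 1.5-fold lower in localized electroporation than in control, against 5.58% of measured genes, and a summed log2 ratio of -0.69. Cluster 0 had 7, against 4.74%, and cluster 5 had 7, against 6.79%. Cluster 1 had 5, against 3.89%, cluster 4 had 4, against 6.24%, and cluster 3 had 3, against 4.49%, the fewest, with a summed log2 ratio of -0.31. Cluster 4, also led by genes of mitosis, and cluster 5, also led by precursor genes, did not follow clusters 2 and 3 in size, with summed log2 ratios of -0.38 and -0.47, and differences between clusters were not tested. In bulk electroporation 0 of 19 members were lower in each of the 6 clusters, against 2.78%, 1.91%, 3.57%, 4.3%, 4.76% and 4.61% of measured genes in clusters 0 to 5.

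**Figure D3:**
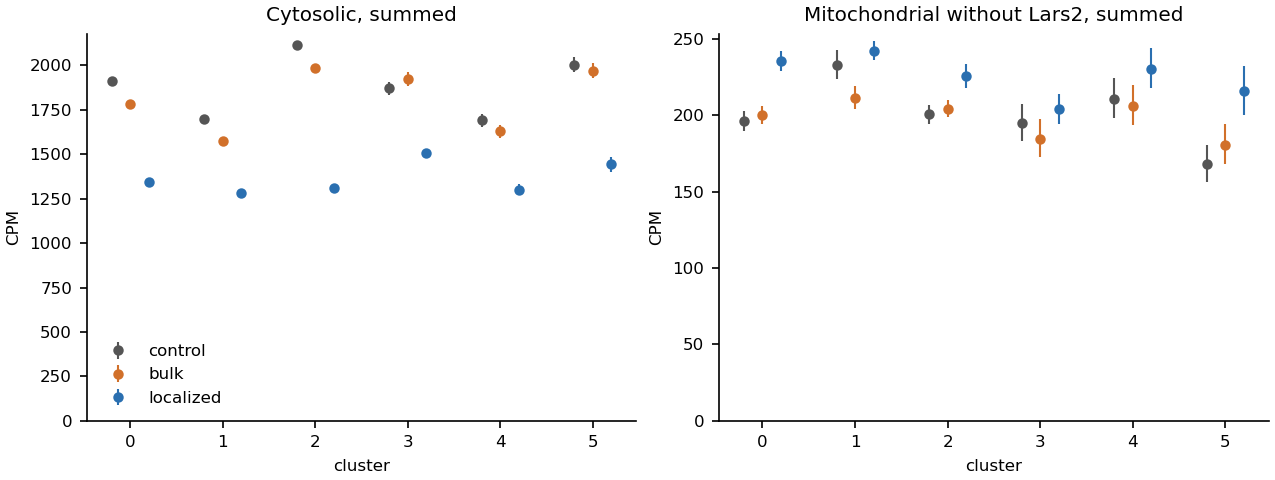
Summed CPM of the cytosolic genes (left) and of the mitochondrial genes without Lars2 (right) in each of 6 clusters and 3 libraries, with exact 95% counting intervals. On the left the localized points lie between 1284 and 1505 CPM, below control and bulk in every cluster; on the right they lie above both in every cluster.

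Sars and Cars were at least 1.5-fold lower in localized electroporation in all 6 clusters. Sars ranged from a log2 ratio of -0.76 in cluster 3 to -1.51 in cluster 2, and Cars from -0.69 in cluster 4 to -1.27 in cluster 5. Aars was lower in 5 clusters, Gars and Yars in 4, and Iars and Nars in 3. A further 9 cytosolic members, among them Dars, Hars and Rars, were not lower in any cluster by that limit. Of these Qars was at least 1.5-fold higher in 2 clusters, at log2 ratios of 0.62 in cluster 3 and 0.65 in cluster 5, where control held 46 and 44 Qars UMIs. The ratio of cytosolic to mitochondrial UMIs without Lars2 was lowest in localized electroporation in each cluster, at 5.81 against 10.5 in control and 9.73 in bulk in cluster 2, and at 7.38 against 9.60 and 10.4 in cluster 3.

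The contrast between localized electroporation and control was present at every cell depth. In cells of 3000 to 6000 UMIs, 7 of 19 cytosolic members were at least 1.5-fold lower in localized electroporation than in control, against 7.52% of measured genes. The counts were 5 in cells of 6000 to 9000 UMIs, 7 in those of 9000 to 12000 and 9 in those of 12000 to 20000, against 5.68%, 5.09% and 4.06%. Cells of 20000 UMIs or more had 10, against 5.89%. In bulk electroporation the count was 0 of 19 in each of the 5 depth ranges, against 5.25%, 2.83%, 2.33%, 2.34% and 6.29% of measured genes from the shallowest range to the deepest.

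Per cell, the distribution of cytosolic synthetase UMIs in localized electroporation lay toward lower values. With each cell thinned to 3000 UMIs, a cell held a mean of 5.64 cytosolic synthetase UMIs in control (SD over cells 3.05), 5.21 in bulk (SD 2.86) and 3.97 in localized electroporation (SD 2.36), with medians of 5, 5 and 4. Cells with 0 such UMIs made up 1.02% (0.781% to 1.30%) of control, 1.5% (1.2% to 1.86%) of bulk and 3.08% (2.67% to 3.54%) of localized electroporation. Cells spread widely around these means, so the libraries overlapped widely cell by cell. The mitochondrial set without Lars2 had a mean of 0.590, 0.592 and 0.680 UMIs per thinned cell.

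**Figure D4:**
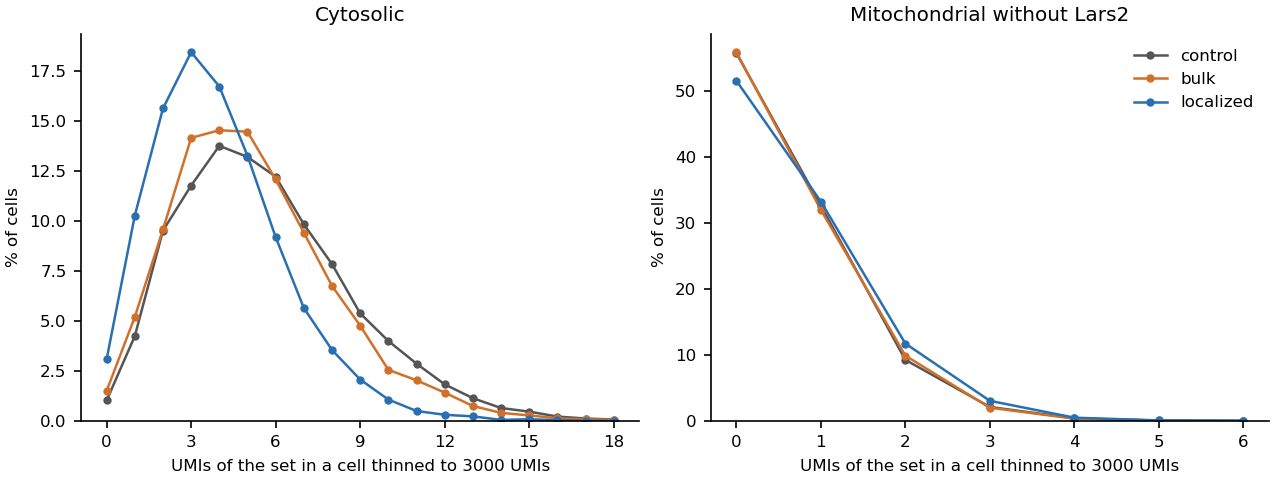
Share of cells (%) by UMIs of the cytosolic set (left) and of the mitochondrial set without Lars2 (right), each cell thinned to 3000 UMIs. The localized curve (blue) on the left is shifted toward fewer UMIs, with a median of 4 against 5 in control (grey) and bulk (orange); the curves on the right lie close together.

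Transcripts regulated by ATF4 were lower in both electroporated groups, and this direction was known from earlier results of these data, so it is not independent evidence. Of 32 such genes, a list that holds no synthetase, 25 were at least 1.5-fold lower in localized electroporation than in control, against 3.32% of measured genes, and 13 in bulk, against 2.12%, with median log2 ratios of -1.29 and -0.48. Atf4 itself was at 327 CPM in control, 177 CPM in bulk and 104 CPM in localized electroporation, and Ddit3, which encodes the stress factor CHOP, at 217, 48.7 and 19.7 CPM. Chac1, a glutathione-degrading enzyme, was at 71.9, 14.8 and 1.8 CPM, Trib3 at 37.0, 8.56 and 1.05 CPM, and Atf3 at 59.4, 20.5 and 5.38 CPM. Chac1, Trib3 and Atf3 had the largest localized ratios in the list. Control, bulk and localized electroporation stood in that descending order for 26 of the 32 genes, these 5 among them, against 11.3% of measured genes. Some genes of the list stood near control in bulk, as the summed cytosolic synthetases did at a log2 ratio of -0.09. Among them were the amino acid synthesis genes Asns, Psat1, Phgdh and Shmt2, named after their values were seen, at -0.09, -0.07, -0.12 and 0.02. Mthfd2, Aldh1l2 and Psph of the same list stood lower in bulk, at -1.05, -0.72 and -0.20. In all, 28 of the 32 lay below control in bulk, against 34.1% of measured genes. In the promoter windows, 9 of 27 genes of this list held the motif, against 4.51% of all genes with a window.

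Within each library, cells with Ddit3 UMIs held more cytosolic synthetase UMIs than cells with none. In control cells with 0, 1, 2 and 3 or more Ddit3 UMIs after thinning, the mean was 5.14, 6.18, 7.03 and 6.80. In bulk cells it was 5.06, 6.17, 7.11 and 7.23, close to control class by class. In localized electroporation it was 3.93, 4.39, 6.24 and 6.18, the last classes resting on 25 and 11 cells. The localized cells with 0 Ddit3 UMIs, 94.6% of that library, lay below the control cells with 0, which made up 63.0% of theirs. A cell with 0 Ddit3 UMIs after thinning can still hold the transcript. Ddit3 stood at 217 CPM in control and 19.7 CPM in localized electroporation, so the 0 classes need not hold cells of like Ddit3 level. Whether cells of equal Ddit3 level differ between libraries was therefore not tested. The Ddit3 and synthetase counts come from the same thinned cells, whose median depth before thinning ran from 7695 to 11694 UMIs over these classes.

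**Figure D5:**
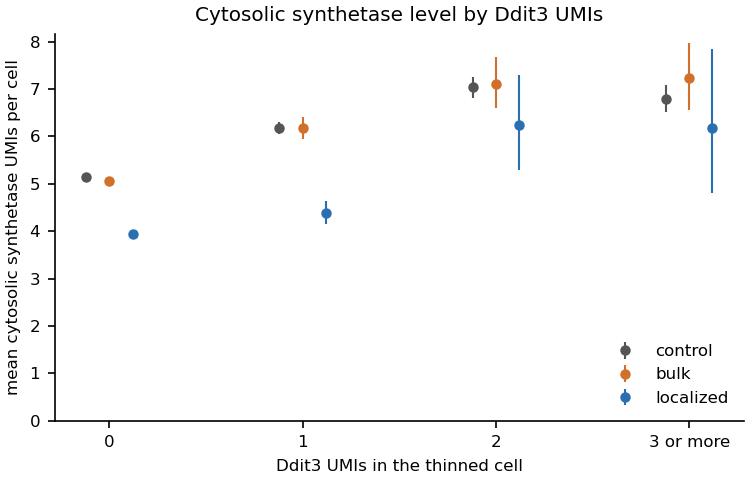
Mean cytosolic synthetase UMIs per cell thinned to 3000 UMIs, by the cell's Ddit3 UMIs, in control (grey), bulk (orange) and localized electroporation (blue), with exact 95% counting intervals. Control and bulk run together from 5.06 to 7.23, and localized electroporation lies below them at 0 and 1 Ddit3 UMIs.

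Other genes of the translation pathway gave the following counts. Of 17 genes that process or modify transfer RNA, 0 were at least 1.5-fold lower in localized electroporation than in control, against 3.32% of measured genes, and 2 were higher, against 12.8%, so the counts lie near the shares over all genes. The 2 were Dtd2, at a log2 ratio of 1.19, and the peptidyl-tRNA hydrolase gene Ptrh2 at 0.66. Of 6 cytosolic elongation factor genes 0 passed the limit, against 3.32% of measured genes lower and 12.8% higher in localized electroporation over control. Eef2 stood at 653 CPM in control, 613 CPM in bulk and 457 CPM in localized electroporation, a log2 ratio of -0.52. Eef1a1 and Eef1g had log2 ratios of -0.36 and -0.29. Of 23 genes of mitochondrial translation 0 passed the limit in any comparison, against those same shares for localized electroporation over control. The shares lower and higher were 2.12% and 8.17% for bulk over control, and 5.37% and 4.67% for bulk over localized electroporation. In localized electroporation over control Mrrf, Mrps35 and Mrps9 had the largest ratios, at -0.44, -0.44 and -0.39.

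Cell makeup moved with the comparison and its part in the result was not tested. Summed astrocyte markers were at 843 CPM in control, 922 CPM in bulk and 1308 CPM in localized electroporation, with 6 of 10 at least 1.5-fold higher in localized electroporation, against 12.8% of measured genes. Summed oligodendrocyte precursor markers were at 702, 758 and 977 CPM, with 4 of 8 higher in localized electroporation, against the same 12.8%. In bulk 3 of these 8 were at least 1.5-fold lower, against 2.12% of measured genes, and their median log2 ratio was -0.36, while Olig1 and Olig2, the largest part of the sum, stood above control. Dividing-cell markers were at 2875, 2949 and 2414 CPM, with 0 of 8 past the limit in either comparison with control. In localized electroporation 3.32% of measured genes were lower and 12.8% higher, and in bulk 2.12% and 8.17%. The dividing-like cluster 2 held 1394, 1173 and 772 cells, whereas cluster 1, led by Ccne2 and Hist1h1b, held 803, 945 and 1728. Among the smaller clusters, the astrocyte-like cluster 6 (Gfap, Apoe, Agt and Aqp4) held 4, 6 and 181 cells. Cluster 7, led by Ccl5, held 0, 136 and 16. Interferon-response genes were high in bulk only, with a summed level of 522 CPM against 15.7 in control and 16.1 in localized electroporation.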

How the data were processed

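Each library was 1 deposited matrix of whole UMI counts per gene and barcode, not normalized, with all barcodes kept. Per the submitters' processing notes, Cell Ranger 6, Seurat 4.0.4 and GRCm38 were used, whereas Cell Ranger 4 is the version per the file headers. Intron counting, the strand setting and the annotation release are not given in the sources used here.

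Cells were barcodes with at least 3000 UMIs, at least 500 genes and at most 20% mt- UMIs. Counts were summed over the kept cells of each library and scaled to CPM, and log2 ratios used no pseudocount. Genes needed a mean of at least 2 CPM. With 1 library per group no test was possible, and a gene was counted when past 1.5-fold. CPM intervals are exact Poisson, shares exact Clopper-Pearson and ratios exact conditional binomial, all at 95%. They cover counting error only, in a range of 61775756 to 77491732 UMIs per library. No doublet caller was run; an alternative left out cells above 25000 UMIs (control 1.12%, bulk 9.64%, localized electroporation 2.75% of cells).

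Clusters used log-normalised counts of 2000 variable genes scaled within each library, 30 components, 15 neighbours and Leiden resolution 0.5, without the members and the stress and interferon lists. For per-cell values each cell was thinned to 3000 UMIs. The counting code was tested on simulated data. Gene coordinates come from GENCODE vM21 on GRCm38 and promoter windows from RefSeq on GRCm38.p6. Python 3.11.15, numpy 2.4.6, scipy 1.17.1, pandas 2.3.3, scikit-learn 1.9.0, leidenalg 0.10.2, igraph 0.11.9, matplotlib 3.10.9 and BLAST 2.17.0 were used.

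The members, the lists and the rule for named genes were chosen with earlier results of these data known. The rule named every cytosolic member past 1.5-fold against control and those nearest to that limit on either side. It also named every mitochondrial member past 1.5-fold, the 6 mitochondrial members of highest mean CPM and up to 3 genes of each other list by size of the localized ratio. Results were recomputed under 11 other settings and under 1 more, without Lars2, chosen after seeing the data. Some promoter sequence is not reported here.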

Additional observations from a re-analysis of the deposited data

How the results depend on the processing

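The count of cytosolic members at least 1.5-fold lower in localized electroporation than in control was 8 and ranged from 7 to 10 over the 11 other settings, and in bulk electroporation it was 0 in all of them. Scaling by median-of-ratios moved the median log2 ratio of all measured genes by -0.11 for bulk and -0.15 for localized electroporation over control. Under it the cytosolic median in localized electroporation was -0.61, the mitochondrial median 0.05, and 2 mitochondrial members were at least 1.5-fold lower there in place of 0. That last count was 1 with no cell filter, 1 in cells of 6000 to 20000 UMIs and 1 in the largest cluster. The count lower in bulk than in control, 1 in the report, was 0 in cells of 6000 to 20000 UMIs, 0 without cells above 25000 UMIs, and 0 without Lars2, where it follows from leaving out the gene counted. Bulk over localized electroporation, the 6 higher cytosolic members were 3 in cells of 6000 to 20000 UMIs, and 1 mitochondrial member was at least 1.5-fold higher in place of 0 in the largest cluster. With no cell filter the log2 ratio of Lars2 for bulk over localized electroporation turned from -0.74 to 0.37. Apart from the alternative without Lars2, the cause of these shifts was not tested. No paired analysis was possible because each group had 1 library. Depth limits Pars2 most, with 110 UMIs in control.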
